A study of Mus musculus with 4 samples.

Results

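Tmem119, Olfml3, Sparc, Fcrls, Cx3cr1 and Selplg are transcripts of surface or secreted proteins that are widely used to recognise microglia, the resident macrophages of the brain. They were taken by gene symbol, and each of the 6 symbols matched 1 of the 32285 gene identifiers in the deposited matrices. The questions put to the data were which of these markers held their level in microglia after a cerebrovascular injury, which fell, and how far each set microglia apart from macrophages with high Lyz2 and Ms4a7 and from border-associated macrophages.

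The series holds 4 single-cell RNA sequencing libraries, each from the brain of 1 mouse. A wild-type mouse (IL6 WT, +/+) and a mouse labelled as lacking interleukin-6 (IL6 KO, -/-) had sham surgery, and 1 mouse of each genotype label had a cerebrovascular injury (CVI), made with pulsed ultrasound and intravenous microspheres under a thinned skull. The mice were 8 to 12 weeks old, tissue was taken with a 4 mm punch at day 6, and cells carrying CD11b were selected with beads, so the mix of cell types was set in part by that selection. The sample labels place the control mice after sham surgery while the extraction text calls them uninjured, the labels do not say whether the injury was the mild or the severe form, and the targeted exon of Il6 is not named.

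With 1 mouse per group there are no replicates. No difference between libraries was tested, and every value describes these libraries. Intervals are 95% intervals for counting error only and do not cover differences between mice. After filtering, 957, 2883, 1362 and 2549 cells were analysed in the wild-type sham, wild-type injured, knockout-labelled sham and knockout-labelled injured libraries, and values below are given in that order unless stated. The libraries held 15222380 to 40336067 counted transcripts (unique molecular identifiers, UMIs), and the median cell held 7801 to 10264.5. Il6 itself was counted in every library, with a counts-per-million (CPM, per total UMIs) level of 10.5, 4.57, 25.4 and 22 over all analysed cells. It was thus higher in both knockout-labelled libraries, and because 3′ counts do not show whether an exon is missing they do not check the genotype. These libraries are called knockout-labelled here. The 2 sham libraries shared 21 cell barcodes, 18 of them in cells of the same class, whereas other pairs of libraries shared 0 to 2. The calls given here were the same without the cells that carry a shared barcode.

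Cells were grouped into 19 clusters without using the 6 markers, and clusters were named from other genes. The microglia-like class (7 clusters, named from P2ry12, Siglech and similar genes) held 541, 1358, 884 and 1833 cells. Its defining genes were present, with P2ry12 counted in 97.8% and Siglech in 95.2% of these cells. The Lyz2/Ms4a7 macrophage-like class was found after injury only, with 0, 443, 0 and 43 cells. The 0 of 957 and 0 of 1362 sham cells leave exact 95% upper bounds of 0.385% and 0.27%. Of this class's own list, Lyz2 was counted in 99.8%, Ms4a7 in 98.8%, Cd44 in 67.1% and Ahnak in 61.7% of its cells. Fn1 (13.99%), S100a4 (8.64%) and Ccr2 (8.02%) of the same list were counted in fewer. Of the monocyte list, Chil3 was counted in 29.4%, Ms4a4c in 26.1% and Ly6c2 in 4.12% of these cells. The monocyte genes Ifitm6, Vcan and Plac8 were counted in 2.06%, 1.23% and 1.03%. Cells named dendritic-like from their leading genes (26, 111, 14 and 57) also carried markers of the Lyz2/Ms4a7 list and were kept apart from it. Border-associated macrophage-like cells (Pf4 in 93.1%, Mrc1 in 89.4%) numbered 75, 57, 54 and 59. Ms4a7 did not set them apart from the Lyz2/Ms4a7 class, at 1022 against 1007 CPM, while Lyz2 was 9018 against 42983 CPM. Of the border list, F13a1 was counted in 55.8% and Pf4 in 50% of Lyz2/Ms4a7 macrophage-like cells. Folr2 was counted there in 27.0%, Cbr2 in 12.3%, Mrc1 in 8.64%, Cd163 in 0.412%, and Lyve1 and Cd209f in 0.206% each. Clusters left without a name took up 26.4%, 26.7%, 23.6% and 14.6% of the cells. In all 5 of them the microglia list had the largest marker share. The cluster led by Nrgn and Snap25, which also carried neuron markers, held mostly sham cells (109, 12, 159 and 18 cells). A pair of the unnamed clusters came almost wholly from the injured libraries. They were a cluster led by Cd5l and Spp1 (0, 408, 0 and 37 cells), which also carried Lyz2-class markers, and a cluster led by Cst7, Apoc1 and Apoe (1, 270, 2 and 92 cells). The rule that left the Cd5l cluster unnamed was set after its genes were seen.

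The proteins fall into 3 groups by where they act. TMEM119 is a membrane protein of unknown receptor function that serves as a histological label of microglia. CX3CR1 is the receptor for fractalkine, a ligand carried and shed by neurons. PSGL-1, the product of Selplg, is the mucin-like ligand through which leukocytes bind P-selectin, and it must be glycosylated and sulfated to do so. FCRLS is an Fc receptor-like protein of mouse. Olfactomedin-like 3 (Olfml3) and osteonectin (Sparc) are secreted matrix-associated proteins, and Sparc is also made by endothelial cells and fibroblasts. Loss of such markers is a familiar feature of activated microglia, which is why their stability after injury matters for telling microglia from macrophages that enter from blood.

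In the mm10 genome with GENCODE vM21 genes, Tmem119 lies on chromosome 5 at 113793729 to 113800516 and Selplg on the same chromosome at 113818536 to 113832644. Olfml3 lies on chromosome 3 at 103722222 to 103738001 and Fcrls on chromosome 3 at 87250758 to 87263738. Sparc lies on chromosome 11 at 55394500 to 55423183 and Cx3cr1 on chromosome 9 at 119901616 to 120069879. All 6 are on the minus strand. RefSeq start sites (GRCm38.p6) were available for Olfml3, Sparc, Fcrls and Cx3cr1. The sequences below are shown because Olfml3 kept its level after injury and Cx3cr1 did not, and because Cx3cr1 and Fcrls each held a searched motif in the 250 bases before the start site. The Olfml3 window is given whole (chr3:103738002-103738251). For Fcrls (chr3:87263651-87263680) and Cx3cr1 (chr9:120068344-120068373), 30 bases around the motif are given, and those of Cx3cr1 lie inside an exon of a longer annotated transcript. Of the 30 Fcrls bases, 3 lie in an exon. Of the 250-base windows, 114 bases of Fcrls, 12 of Sparc and 0 of Cx3cr1 lie outside exons. All are minus strand, 5′ to 3′, with the motif in capitals.
Olfml3: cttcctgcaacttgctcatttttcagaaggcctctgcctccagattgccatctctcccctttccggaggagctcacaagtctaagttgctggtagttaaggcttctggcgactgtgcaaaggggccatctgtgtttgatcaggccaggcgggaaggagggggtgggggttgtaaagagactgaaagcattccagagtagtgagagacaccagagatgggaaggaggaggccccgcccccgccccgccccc
Fcrls: caagtctgtaaaGAGGAAggacgtttgctt
Cx3cr1: gtcacagcatCTAAAGATAGggtaccacac
Searched on both strands, GAGGAA (a core bound by PU.1 and other ETS factors) was in 23.3% of all 32851 RefSeq windows of this length and in Fcrls only of the 4. A loose form of the MEF2 motif, CTA and TAG with any 4 bases between them, was in 3.2% of windows and in Cx3cr1 only. The 4 middle bases of the Cx3cr1 match are AAGA, and no stricter MEF2 motif was searched. TGANTCA (AP-1), in 6.75% of windows, and TTCNNNGAA (STAT), in 7.02%, were in none of the 4. The search describes letters in these windows and was not tied to the expression values.

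In microglia-like cells, the 3 markers Tmem119, Cx3cr1 and Selplg were lower in the injured than in the sham library under both genotype labels, whereas Olfml3, Sparc and Fcrls stayed within 1.5-fold. Lower by at least 1.5-fold were thus 3 of 6 markers in each pair. Of all genes tested, meaning those with at least 20 CPM in either library and 50 UMIs in all, 22.9% of 6149 met that rule in the wild-type pair and 10.7% of 6120 in the knockout-labelled pair. Higher by at least 1.5-fold were 0 of 6 in each pair, against 6.46% and 5.1% of all genes. The median log2 ratio of the 6 markers was -0.54 in the wild-type pair, against -0.26 for all genes tested. Ratios are taken relative to all UMIs of the class, and calls use log2 ratios with 10 CPM added to both sides.

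**Figure D1:**
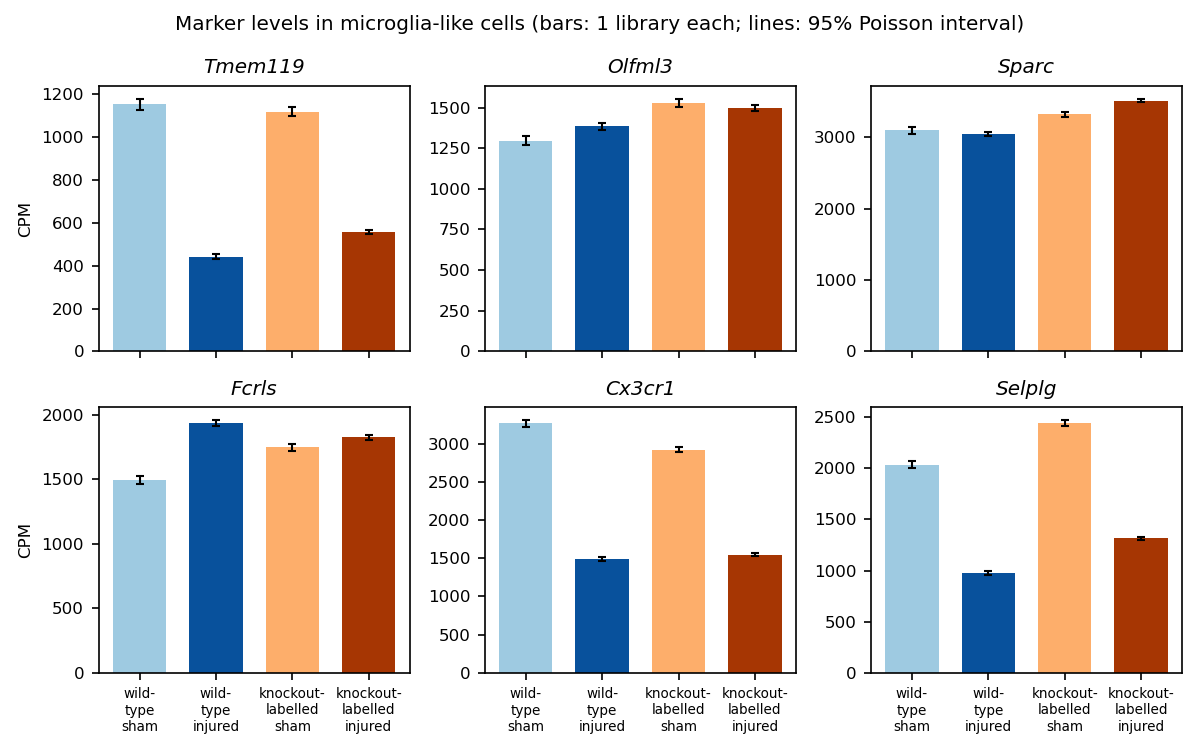
Level of each marker in microglia-like cells, in counts-per-million of the UMIs of the class (CPM, vertical axis from 0), with 1 bar per library and 95% Poisson intervals. Both injured libraries lie below both sham libraries for Tmem119 (442 and 557 against 1154 and 1120 CPM), Cx3cr1 and Selplg, but not for Olfml3, Sparc and Fcrls.

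Tmem119 showed the largest ratio of the 6. Its level was 1154 CPM (1129 to 1181) in the wild-type sham library, 442 (430 to 454) in the wild-type injured, 1120 (1098 to 1141) in the knockout-labelled sham and 557 (547 to 568) in the knockout-labelled injured library. The sham levels were alike and both injured levels were lower, by 2.61-fold (2.52 to 2.71) in the wild-type pair and 2.01-fold (1.96 to 2.06) in the knockout-labelled pair. In the median wild-type cell the marker fell from 11.5 to 4.22 UMIs per 10000.

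Cx3cr1, the fractalkine receptor, was at 3266 CPM (3223 to 3310), 1489 (1467 to 1511), 2922 (2888 to 2957) and 1546 (1529 to 1564). Both injured libraries lay below both sham libraries, with levels 2.19-fold (2.15 to 2.24) and 1.89-fold (1.86 to 1.92) lower. Selplg was at 2035 CPM (2001 to 2070), 977 (960 to 995), 2441 (2409 to 2473) and 1316 (1299 to 1332). It was 2.08-fold (2.03 to 2.14) lower in the wild-type pair and 1.86-fold (1.82 to 1.89) lower in the knockout-labelled pair. With a 2-fold rule, on the scale with 10 CPM added, all 3 markers were still lower in the wild-type pair (3.92% of all genes) and 0 in the knockout-labelled pair (1.23% of all genes). At 2-fold 0 of 6 markers were higher in either pair (2.67% and 2.32% of all genes).

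The call did not rest on 1 sham library. Set against the knockout-labelled sham library, the wild-type injured library was 2.54-fold lower for Tmem119, 2.5-fold for Selplg and 1.96-fold for Cx3cr1. By the 1.5-fold rule 3 of 6 markers were lower (15.7% of all genes) and 0 higher (5.91%). The knockout-labelled injured library set against the wild-type sham library was 2.07-fold lower for Tmem119, 2.11-fold for Cx3cr1 and 1.55-fold for Selplg, so that again 3 of 6 were lower (17.6% of all genes) and 0 higher (5.9%).

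The secreted pair and Fcrls gave levels of another kind. Olfml3 was at 1295 CPM (1268 to 1323), 1384 (1363 to 1405), 1530 (1505 to 1555) and 1498 (1481 to 1516), and its ratio of injured to sham was 1.07 (1.04 to 1.1) for wild type and 0.979 (0.960 to 0.999) for the knockout-labelled pair. Sparc was at 3093 CPM (3050 to 3135), 3044 (3014 to 3076), 3320 (3283 to 3357) and 3512 (3485 to 3539), with ratios of 0.984 (0.968 to 1.00) and 1.06 (1.04 to 1.07). Neither secreted marker separated sham from injured libraries. Fcrls was at 1492 CPM (1463 to 1522), 1933 (1908 to 1958), 1746 (1719 to 1773) and 1826 (1806 to 1845), which gave ratios of 1.30 (1.27 to 1.33) and 1.05 (1.03 to 1.07).

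The scaling bears on which markers are said to hold. When the libraries were scaled by the median of gene ratios instead of the class total, the median gene's log2 ratio was 0.11 in place of -0.26 in the wild-type pair and 0.08 in place of -0.20 in the knockout-labelled pair. The share of higher among all called genes was then 76.7% in place of 22% in the wild-type pair and 81.5% in place of 32.3% in the knockout-labelled pair. Under that scaling Fcrls was called higher in the wild-type pair (log2 ratio 0.79), and Olfml3 (0.51 and 0.29) and Sparc (0.39 and 0.40) were above sham but under the 1.5-fold rule. Tmem119 (-0.95 and -0.68) and Cx3cr1 (-0.71 and -0.59) were still called lower in both pairs, and Selplg in the wild-type pair (-0.64) but not in the knockout-labelled one (-0.57). A change of scaling moves every gene by about the same amount, so the order of the markers is unaffected.

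The 3 lower markers were also lower inside 2 clusters of microglia-like cells, by less than in the whole class. Sham cells lay mostly in these clusters, one led by Slc5a3 and Hbegf and one led by Hspa1b and Hspa1a. They held few of the injured cells, 97 and 61 of 1358 in the wild-type and 98 and 92 of 1833 in the knockout-labelled injured library. Inside the first, Tmem119 was 0.698 (0.634 to 0.766) of its sham level in the wild-type pair and Cx3cr1 was 0.545. Inside the second the values were 0.673 and 0.790. Selplg was 0.865 and 0.768 in these clusters, against 0.480 in the whole class. In the knockout-labelled pair the same ratios were 0.720 and 0.824 for Tmem119, 0.607 and 0.753 for Cx3cr1, and 0.814 and 0.775 for Selplg. For these 3 markers all ratios were below 1 and closer to 1 than those of the whole class. The part of the fall that lay between clusters was not computed. Fcrls was 1.20 and 1.08 in the 2 clusters of the wild-type pair and 1.12 and 0.824 (0.773 to 0.877) in those of the knockout-labelled pair, so that inside the Hspa1b cluster of the latter it was as far below its sham level as Tmem119.

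**Figure D2:**
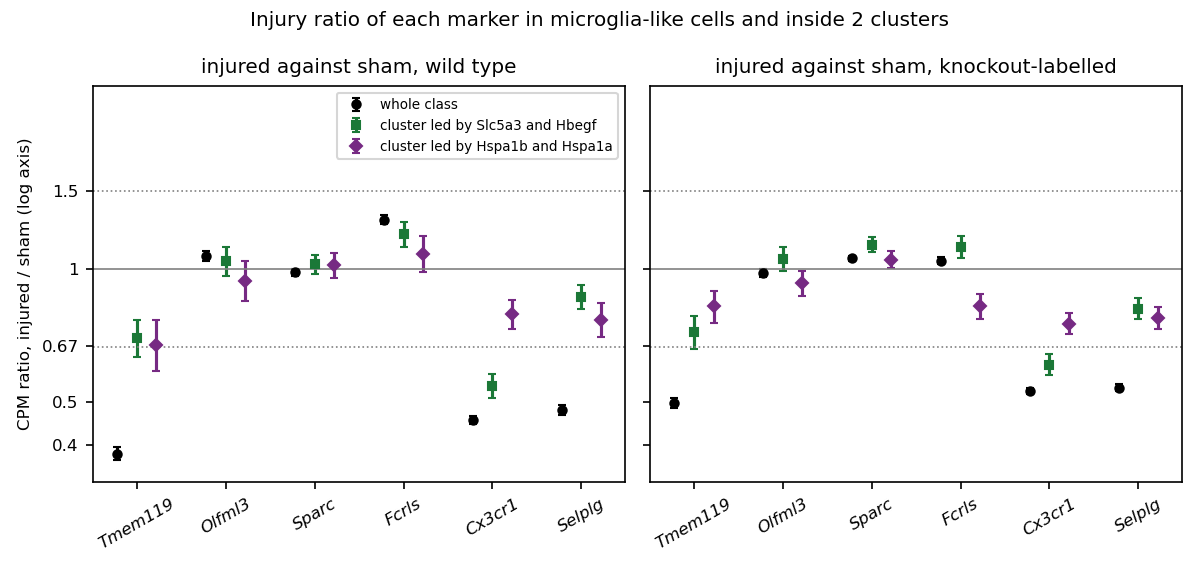
Ratio of the injured to the sham level (CPM ratio, log axis) of each marker in all microglia-like cells and inside the 2 clusters that held many sham and injured cells, with 95% counting intervals, for each genotype label. Dotted lines mark 1.5-fold; Tmem119, Cx3cr1 and Selplg lie below 1 in the class and in both clusters, Olfml3 and Sparc lie near 1, and Fcrls lies above 1 except in the Hspa1b cluster of the knockout-labelled pair (0.824).

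Among the clusters with microglia markers whose levels of the 6 markers are given here, Tmem119 and Selplg were lowest in clusters made up almost wholly of injured-library cells. In the microglia-like cluster led by Lpl and Cst7 (329 and 318 cells in the wild-type and knockout-labelled injured libraries), Tmem119 was 227 CPM (214 to 241) and 253 (240 to 267). Selplg there was 542 and 681 CPM, whereas Olfml3 (1317 and 1305) and Fcrls (2162 and 2110) were near their class levels. In the unnamed Cd5l and Spp1 cluster Tmem119 was 144 CPM (136 to 152) and 163 (139 to 191). Selplg was 186 (177 to 195) and 394 (355 to 435) there, and Cx3cr1 732 and 663. The secreted markers were lower in that cluster too, with Sparc at 1097 and 1135 CPM and Olfml3 at 707 and 735, while Fcrls was 1745 and 1594. In the unnamed Cst7 and Apoe cluster Tmem119 was 264 and 243 CPM, Selplg 362 and 603, Sparc 2292 and 2749, and Fcrls 2030 and 2057. Of the 6, Fcrls had the level nearest to that of the microglia-like class in both unnamed clusters.

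**Figure D3:**
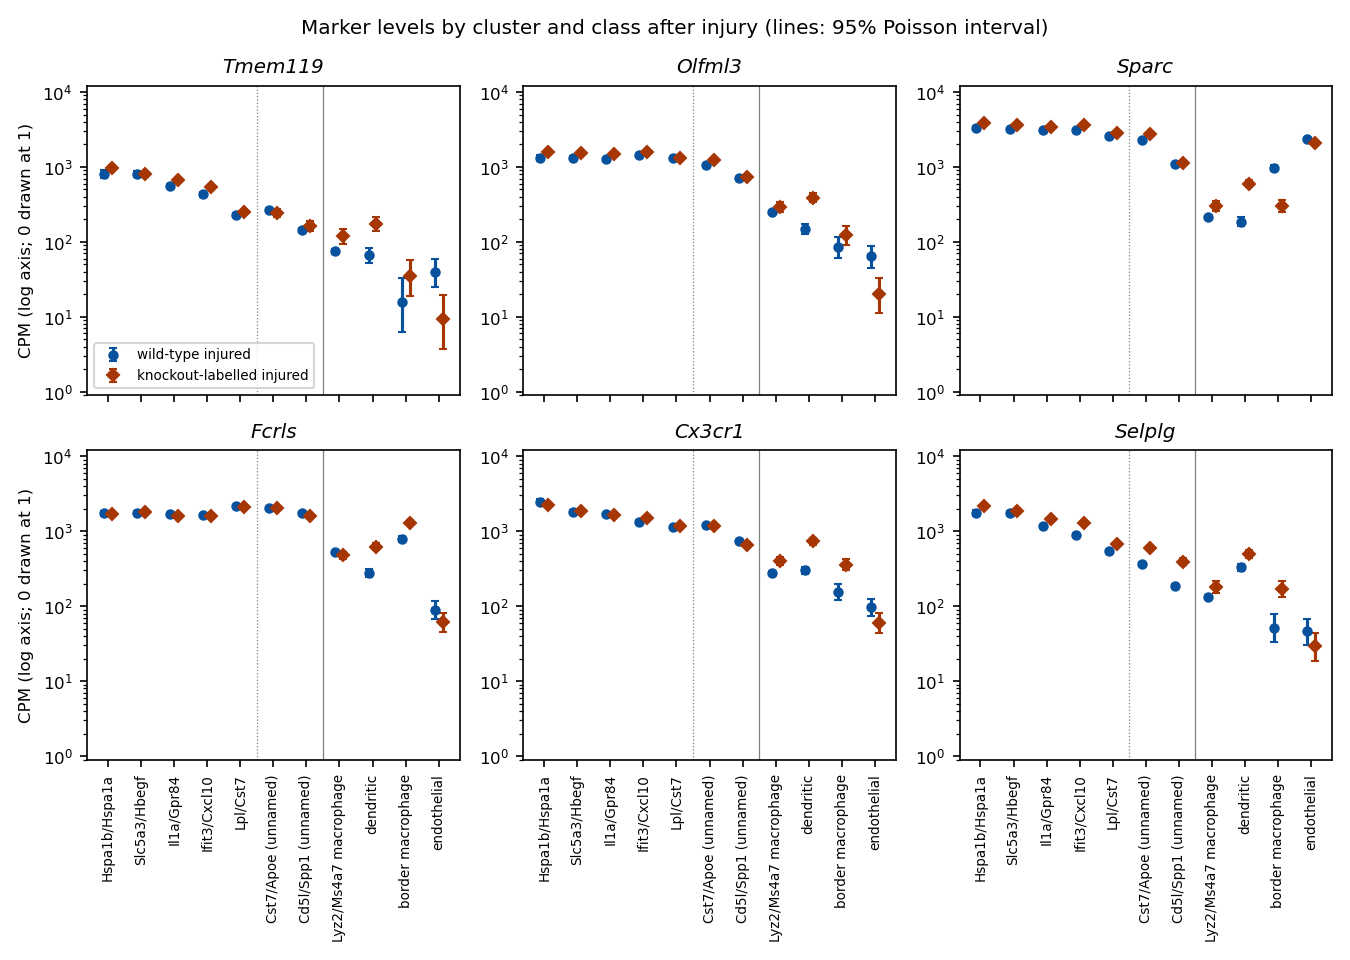
Level of each marker (CPM, log axis) in 5 microglia-like clusters, 2 unnamed clusters and 4 other classes of the injured libraries, with 95% Poisson intervals. The dotted line divides microglia-like from unnamed clusters and the solid line divides unnamed clusters from other classes; Tmem119 and Selplg are lower in the Lpl/Cst7 cluster (Tmem119 227 and 253 CPM) than in the other 4 microglia-like clusters, while Fcrls is higher there.

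Between genotype labels, 0 of 6 markers differed by at least 1.5-fold in microglia-like cells. After injury, 0.0926% of 5399 tested genes were higher and 0.259% lower by this rule in the knockout-labelled library, and after sham surgery 0.244% of 6140 were higher and 0.684% lower. The largest ratios were those of the injured libraries for Selplg, at 1.35 (1.32 to 1.38), and Tmem119, at 1.26 (1.22 to 1.30). In that comparison Selplg lay above 99.7% of tested genes, Tmem119 above 99.2% and Sparc above 94.3%. Olfml3 lay above 76.4%, Cx3cr1 above 53.6% and Fcrls above 13.7%. The difference of the log2 injury effects, knockout-labelled minus wild type, was 0.37 for Tmem119, 0.21 for Cx3cr1, 0.16 for Selplg, 0.10 for Sparc, -0.13 for Olfml3 and -0.31 for Fcrls. It reached 1.5-fold for 0 of 6 markers, against 0.827% of genes with a higher and 0.405% with a lower effect in the knockout-labelled pair.

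This result depended on which cells were counted as microglia. With the Cd5l and the Cst7 and Apoe clusters added, the class held 2036 and 1962 cells in the injured libraries, and Tmem119 was 310 and 520 CPM and Selplg 609 and 1229 CPM in them. Tmem119 and Selplg were then at least 1.5-fold higher in the knockout-labelled injured library (log2 ratios 0.73 and 1.00), and their injury effects differed by 0.77 and 0.74 between genotype labels. The added clusters held 678 cells of the wild-type and 129 of the knockout-labelled injured library. The whole-class log2 ratio of injury with these cells was -1.86 for Tmem119, -1.46 for Cx3cr1 and -1.72 for Selplg in the wild-type pair, and Sparc was then -0.46 and Olfml3 -0.24.

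As shares of cells with a UMI, Tmem119 and Selplg were lower after injury, while Cx3cr1 was counted in nearly every microglia-like cell of every library and its share could show little of its lower level. When every cell was thinned to 3000 UMIs, Tmem119 was counted in 95% (92.8 to 96.8) of wild-type sham microglia-like cells and in 68.8% (66.2 to 71.3) after injury. The knockout-labelled shares were 93.5% (91.6 to 95.1) and 75.4% (73.3 to 77.4). Without thinning the wild-type shares were 96.9% and 88.5%. Selplg went from 97.6% to 87.8% in the wild-type and from 99.5% to 93.5% in the knockout-labelled pair. The other 4 markers were counted in at least 95.6% of thinned microglia-like cells in every library. In endothelial-like cells (median 4250 to 6770 UMIs, against 7856 to 9126 in microglia-like cells), which should lack these transcripts other than Sparc, thinned shares in the 3 libraries with at least 30 such cells were 1.92% to 4.92% for Tmem119, 4.76% to 11.5% for Olfml3, 2.38% to 18% for Fcrls, 4.76% to 14.4% for Cx3cr1 and 0% to 11.5% for Selplg. The 0% is 0 of 42 cells, for which the exact 95% upper bound on the share of cells with a UMI is 8.41%. Thinning left out 38, 89, 55 and 85 shallower microglia-like cells.

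**Figure D4:**
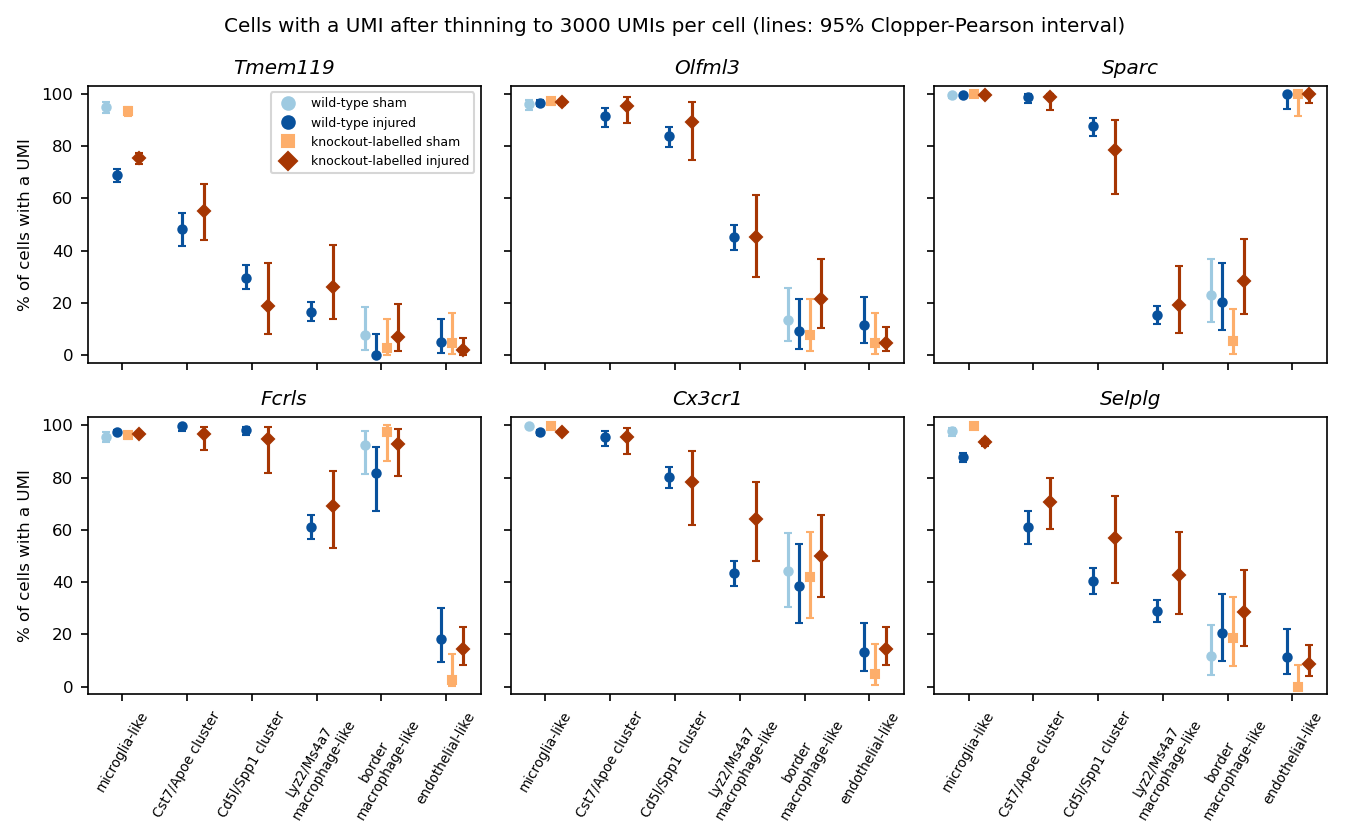
Share of cells with at least 1 UMI of each marker after thinning every cell to 3000 UMIs, by class or cluster and library (at least 30 cells), with 95% Clopper-Pearson intervals. Tmem119 falls from 95% to 68.8% of wild-type microglia-like cells, Fcrls is counted in most border macrophage-like cells, and Sparc is counted in all endothelial-like cells shown.

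Against the Lyz2/Ms4a7 macrophage-like cells, all 6 markers were at least 2-fold higher in microglia-like cells of the wild-type injured library, which alone had 50 or more cells of that class. Sparc separated the classes furthest by level. It was 213 CPM (203 to 223) in the macrophage-like cells against 3044 in microglia-like cells, 14.3-fold higher (13.7 to 15). Selplg was 7.42-fold (6.98 to 7.90) higher, Tmem119 5.89-fold (5.42 to 6.4), Olfml3 5.57-fold (5.32 to 5.83) and Cx3cr1 5.31-fold (5.08 to 5.54). The intervals of Tmem119, Olfml3 and Cx3cr1 overlap, and the order among these markers was not tested. Fcrls came last at 3.66-fold (3.54 to 3.78), with 528 CPM left in the macrophage-like cells. In the knockout-labelled injured library, whose 43 cells of the class fall under the minimum, the order again ran from Sparc (11.7-fold, 10.1 to 13.6) to Fcrls (3.83-fold, 3.41 to 4.32), with Cx3cr1 (3.85-fold) level with Fcrls. The Sparc value there rested on few cells, since 5 of the 43 held 81.2% of its UMIs and its level was 300.3 CPM with them and 67.1 without.

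These ratios can be read against other microglia genes. Siglech was 23.4-fold and P2ry12 11.4-fold higher in microglia-like than in Lyz2/Ms4a7 macrophage-like cells of the wild-type injured library, and Trem2 1.17-fold. Siglech and P2ry12 are among the genes that named the microglia-like class, so their ratios are in part set by the naming. P2ry12 was counted in 48.4% of the macrophage-like cells without thinning, at 86.3 CPM, and the part that free RNA or doublets had in the 6 markers’ counts was not tested. Sparc in the macrophage-like class of the wild-type injured library was also uneven between cells, as 5 of the 443 cells held 33.8% of its UMIs, and its level without them was 146 CPM.

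Single cells were separated less evenly than the levels. For a microglia-like and a macrophage-like cell of the wild-type injured library, both thinned to 3000 UMIs, the chance that the microglia-like cell had the higher count (ties counted as equal parts) was 98.5% for Sparc, 93.2% for Cx3cr1, 91.7% for Olfml3, 88.7% for Selplg, 86.6% for Fcrls and 78.5% for Tmem119. Tmem119 was thus the least separating of the 6 cell by cell after injury at this depth. Its level ratio was the third highest, with an interval overlapping those of Olfml3 and Cx3cr1. Cells without a UMI tie, and Tmem119 had the lowest level of the 6 in these microglia-like cells (442 CPM). The part that low counts had in this order was not tested. Tmem119 was counted in 16.6% (13.2 to 20.4) of thinned macrophage-like cells and Sparc in 15.2% (12.0 to 18.9), whereas Fcrls was counted in 61.1% (56.3 to 65.7), Olfml3 in 45.2% and Cx3cr1 in 43.3%. These macrophage-like cells were deep, with a median of 16926 UMIs against 7856 in the microglia-like cells.

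Against border-associated macrophage-like cells, 5 of 6 markers were at least 2-fold higher in microglia-like cells in all 4 libraries, and Fcrls was the exception. Fcrls was 1442 CPM (1340 to 1550), 789 (708 to 876), 1427 (1303 to 1561) and 1303 (1195 to 1419) in the border class. Microglia-like cells were thus 1.03-fold (0.960 to 1.12), 2.45-fold, 1.22-fold and 1.40-fold higher. Fcrls was counted in 92.3%, 81.8%, 97.4% and 92.9% of thinned border cells, and in 95.6% to 97.5% of thinned microglia-like cells. Tmem119 held 13, 7, 3 and 14 UMIs in the whole border class, and microglia-like levels were 45.4-fold (26.5 to 85.3), 28.0-fold (13.6 to 69.6), 127-fold (43.3 to 614) and 16.1-fold (9.61 to 29.5) higher. Olfml3 was 15.4-fold, 16.2-fold, 28.8-fold and 12.1-fold higher, and Selplg 37.1-fold, 18.8-fold, 33.1-fold and 7.72-fold. Cx3cr1 had a smaller ratio, at 9.94-fold, 9.57-fold, 7.62-fold and 4.32-fold, and was counted in 38.6% to 50% of thinned border cells.

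Sparc was 18.4-fold (14.9 to 23.0), 3.12-fold (2.84 to 3.44), 125-fold (65.9 to 274) and 11.7-fold (9.76 to 14) higher than in the border class. Its level in the wild-type injured border class, 976 CPM, came from few cells, since 5 of 57 cells held 409 of its 433 UMIs (94.5%). These 5 cells carried 1516 UMIs of fibroblast genes (Col1a1, Col1a2, Dcn, Lum, Igf2) and 10 of border macrophage genes, and the other 52 cells carried 72 and 2945. Without the border cells that had more fibroblast than border UMIs (3, 6, 0 and 3 cells), Sparc ratios were 38.9, 44.4, 125 and 16, and Olfml3 ratios were 25.1, 33.7, 28.8 and 13.3. In the wild-type injured library Tmem119 was then at 0 UMIs in the 51 remaining border cells, and the Fcrls ratio was 1.63 in place of 2.45. This step was added after the values were seen.

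**Figure D5:**
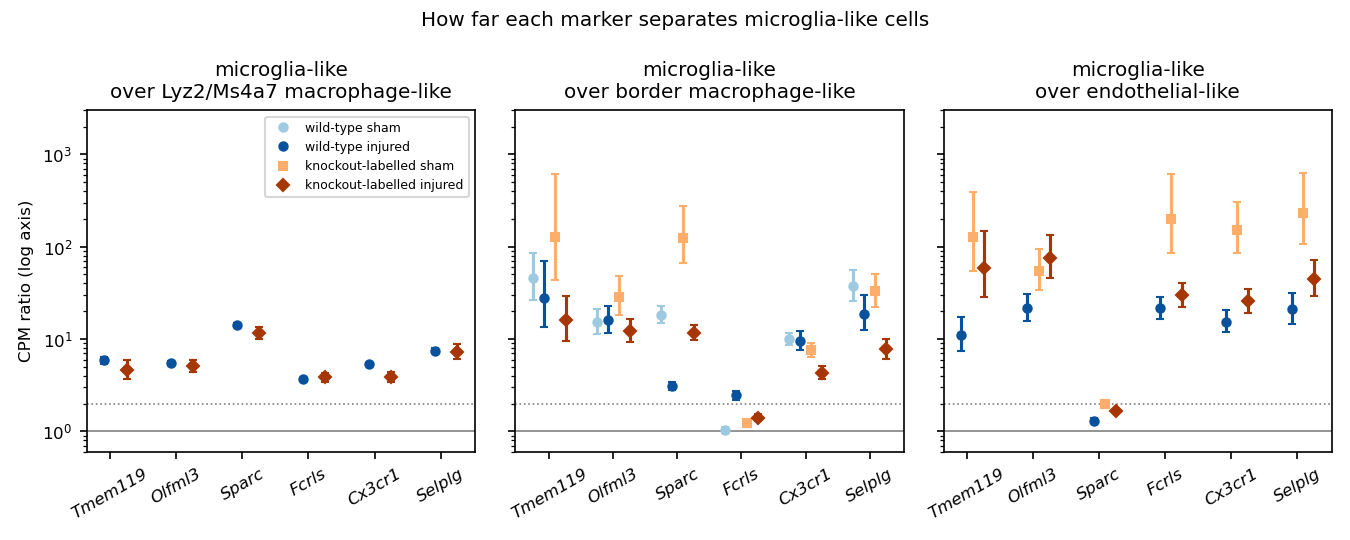
Ratio of the level in microglia-like cells to that in 3 other classes (CPM ratio, log axis) for each marker and library with at least 30 cells of the other class, with 95% counting intervals; the dotted line marks 2-fold. Fcrls lies between 1.03 and 1.40 against border macrophage-like cells in 3 libraries and at 2.45 in the wild-type injured one, Sparc lies near 1 to 2 against endothelial-like cells, and the Lyz2/Ms4a7 class of the knockout-labelled injured library holds 43 cells.

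Outside the macrophages, Sparc and Selplg had levels in another class near those of microglia-like cells. Sparc was 1482 CPM (1324 to 1654), 2326 (2203 to 2454), 1671 (1567 to 1780) and 2099 (1996 to 2205) in endothelial-like cells. Microglia-like levels were only 2.09-fold, 1.31-fold, 1.99-fold and 1.67-fold higher. The endothelial-like class held 28, 82, 47 and 134 cells. Selplg in neutrophil-like cells of the wild-type injured library (33 cells) was 1026 CPM (786 to 1315), against 977 in microglia-like cells. Of the named classes with at least 30 cells in a library, the microglia-like class had the highest level in every library for 5 of the 6 markers, with Selplg the exception. The oligodendrocyte-like class (18, 29, 30 and 36 cells) held all 6 markers together with other microglia genes, with P2ry12 counted in 46.0% of its cells. In the knockout-labelled injured library its levels were 2046 CPM for Sparc, 1013 for Cx3cr1, 992 for Fcrls, 809 for Olfml3, 602 for Selplg and 295 for Tmem119, against 3512, 1546, 1826, 1498, 1316 and 557 in microglia-like cells. In the wild-type injured library microglia-like levels were 2.51-fold (Sparc) to 4.72-fold (Tmem119) higher than in this class. The part that doublets or free RNA had in these counts was not tested.

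The wider set of microglia markers held more lower than higher genes. Of 30 other microglia marker genes, 15 were lower and 0 higher by at least 1.5-fold in the wild-type pair, and 14 lower and 1 higher (Lag3) in the knockout-labelled pair. Of all genes, 22.9% and 10.7% were lower and 6.46% and 5.1% higher. Their median log2 ratios were -0.59 and -0.54, against -0.26 and -0.20 for all genes tested. Slc2a5, a fructose transporter, was 3.29-fold and 2.55-fold lower. P2ry12, the ADP receptor of microglial processes, was 2.41-fold and 2.12-fold lower, and P2ry13, a related receptor, 2.41-fold and 2.68-fold. Entpd1, an ectoenzyme that degrades ATP, was 2.69-fold and 1.97-fold lower. Trem2, a lipid-sensing receptor, had ratios of 1.48 and 1.38 and the complement gene C1qa 1.38 and 1.32, both under the rule.

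Among 36 partners and relatives of the 6 markers, 12 and 13 had enough counts to be tested. Lower were 5 in the wild-type pair (B4galt1, Gcnt1, St3gal6, Tpst2 and Fcrl1), where 22.9% of all genes were, and 4 in the knockout-labelled pair (the same without Tpst2), where 10.7% were. In each pair 1 was higher (Fcgr4), against 6.46% and 5.1% of all genes. The list medians were -0.35 and -0.13, against -0.26 and -0.20 for all genes tested, so the knockout-labelled median lay above that of all genes. B4galt1 and Gcnt1, glycosyltransferases that build the selectin-binding glycans of PSGL-1, were 2.05-fold and 1.95-fold lower in the wild-type pair, and 1.72-fold and 1.62-fold lower in the knockout-labelled pair. St3gal6 (a sialyltransferase) and Tpst2 (a tyrosine sulfotransferase) act on the same protein. The Fc receptor gene Fcgr4 was higher, at 2.55-fold (2.09 to 3.14) and 3.10-fold (2.56 to 3.78). Its signalling chain Fcer1g had ratios of 1.37 and 1.21.

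Other values moved with the injury in these cells. The summed level of the 7 Lyz2/Ms4a7 macrophage markers in microglia-like cells was 351, 1556, 335 and 1237 CPM, with all 7 detected in each library. Of this, Lyz2 was 1499 and 1195 CPM and Ms4a7 15 and 6.63 CPM in the injured libraries. The summed level of 18 genes that respond to tissue dissociation was 29909, 22154, 30211 and 22633 CPM, and 8 of them were lower in each pair, where 22.9% and 10.7% of all genes were. The largest ratio was that of the heat shock gene Hspa1b, 6.35-fold and 14.3-fold lower, and the 1 gene called higher was Ier3 in the wild-type pair. Neuron markers summed to 78.6, 14, 57.5 and 20.1 CPM, monocyte markers to 7.88, 23.5, 2.46 and 25.4, and border macrophage markers to 16.2, 56.1, 11.2 and 18.9. All 7 neuron markers were detected in each library, Ly6c2 was the only monocyte marker of 6 at 0 (in the knockout-labelled sham library), and 6 to 8 of the 8 border markers were detected. Cd163 was at 0 in the wild-type injured and knockout-labelled sham libraries, Lyve1 in the latter and Cd209f in the knockout-labelled injured one. Their part in the fall of Tmem119, Cx3cr1 and Selplg was not tested.

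Across 18 sums of a class in a library (at least 30 cells each), the genes whose log2 level was most like a marker's differed between markers. Tmem119 was most like Epb41l2 (Pearson r 0.97) and Olfml3 (0.97), and Cx3cr1 most like P2ry12 (0.98). Fcrls was most like Csf1r (0.98) and C1qa (0.98), and Selplg most like Pag1 (0.96). Sparc had the lowest best match, Dst at 0.92, and its r with Fcrls was -0.03. These sums share libraries, depth and cells of like type, and the r values describe them only.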

How the data were processed

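The authors deposited unnormalized UMI counts for each gene and barcode. The submitters' processing notes name Cell Ranger 6.0.1 and mm10, without an annotation release. The labels name the 10x 3′ v3 chemistry, so UMIs lie near transcript ends and levels are not compared between genes.

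A barcode was used if it had 500 genes or more, 1000 UMIs or more, and no more than 10% of UMIs from mitochondrial genes (992 to 2996 per library). The highest Scrublet scores were left out at 0.8% per 1000 barcodes. Cells were clustered with scanpy 1.11.5 (2000 variable genes, 30 components, 15 neighbours, Leiden resolution 1, seed 0, no integration), without the 6 markers in scoring, clustering or naming. Clusters took the class whose fixed markers were detected most. Where leading genes held more markers of another class and no list was detected above 60%, that other class was taken. This gave the dendritic-like class, where the Lyz2/Ms4a7 list was detected most (mean share of cells 0.56). It also gave the oligodendrocyte-like class, where the astrocyte list led (0.47, against 0.43 for the oligodendrocyte list). Clusters otherwise stayed unnamed when leading genes, depth or a second class went against the largest share.

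Counts were summed per class and library and scaled to CPM. Levels carry exact Poisson, ratios exact conditional binomial and shares exact Clopper-Pearson 95% intervals. A gene was tested from 20 CPM in one of the compared libraries and 50 UMIs in all libraries together, and called at 1.5-fold from log2 ratios with 10 CPM added. The call rule was run on simulated Poisson counts without variation between mice or cells. Such counts cannot show how the rule does between single mice. The counts of markers 2-fold higher than in the 2 macrophage classes used libraries with at least 50 cells of that class. Levels and ratios are also given for smaller classes. All 6 markers are named, and genes of a companion list could be named if among its 3 highest or 3 lowest in either injury pair. Tpst2 was named after its values were seen. The markers and lists were chosen with earlier results of these data known.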

Additional observations from a re-analysis of the deposited data

Results flagged for a closer look

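Olfml3 lay on opposite sides of its sham level under the 2 genotype labels when scaled to the class total. Its injured to sham ratio in microglia-like cells was 1.07 (1.04 to 1.1) in the wild-type pair and 0.979 (0.960 to 0.999) in the knockout-labelled pair. The difference was not tested, since each group is 1 library, and both ratios were within 1.5-fold of 1. With median-of-ratios scaling Olfml3 was above sham in both pairs (log2 ratios 0.51 and 0.29). The wild-type and knockout-labelled ratios were 1.04 and 1.05 inside the Slc5a3 cluster, and 0.940 and 0.930 inside the Hspa1b cluster.

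The 6 markers were also counted in barcodes with fewer than 500 genes, which entered no comparison. The lowest of the 4 libraries held 186 CPM of Tmem119, 339 of Olfml3, 851 of Sparc, 622 of Fcrls, 351 of Cx3cr1 and 306 of Selplg in them, and the highest 565, 665, 1485, 916, 658 and 941. Within each library, each of the 6 markers was lower in these barcodes than in microglia-like cells. Tmem119 was at 565, 186, 335 and 303 CPM in them, against 1154, 442, 1120 and 557 in microglia-like cells. Only between libraries did 1 marker cross, as 565 CPM in the wild-type sham barcodes was above the 442 of wild-type injured microglia-like cells.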

How the results depend on the processing

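No paired analysis was possible because each group is 1 library. A model with injury and genotype as additive terms over the 4 libraries was not run. The 3 lower markers were called in both injury pairs under each alternative run, apart from Selplg with median-of-ratios scaling in the knockout-labelled pair (2 of 6 called), and the call at 2-fold, which left 0 of 6 in that pair. The alternatives were equal weight per cell, a stricter cell filter, doublets kept, Leiden resolutions 0.5 and 1.5, unnamed clusters added, no filter on low genes, the other sham library and shared barcodes left out. The difference of the injury effects reached 1.5-fold for 2 markers (Tmem119 and Selplg) with all unnamed microglia-marker clusters added, with the Cd5l and the Cst7 and Apoe clusters added (chosen after seeing the data) and at resolution 0.5. Markers that lost at least 10 points of their share in the wild-type pair numbered 1 with cells thinned to 3000 or 6000 UMIs, 3 at 1500 UMIs, 0 without thinning and 2 when at least 2 UMIs were asked. All 6 markers stayed 2-fold higher than in Lyz2/Ms4a7 macrophage-like cells, and the same 5 than in border cells, under each alternative of class, weight and filter. At 4-fold these were 5 and 4.

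Counts over all genes moved more. With median-of-ratios scaling 328 genes were lower and 1078 higher in the wild-type pair, against 1408 and 397, and 146 and 643 in the knockout-labelled pair, against 655 and 312. Equal weight per cell gave 913 and 423 lower genes, and the other sham library 1085 in the knockout-labelled pair. At 2-fold the counts were 241 and 164, and 75 and 142. In the knockout-labelled against the wild-type injured library 14 genes were lower and 5 higher. These counts became 110 and 75 with the Cd5l and the Cst7 and Apoe clusters added, 111 and 69 with all unnamed microglia-marker clusters, 111 and 77 at resolution 0.5, 36 and 6 at resolution 1.5 (where Selplg was called higher), 18 and 3 with equal weight per cell, 19 and 9 without the filter on low genes, and 5 and 0 at 2-fold. Between sham libraries 42 lower and 15 higher genes became 67 and 15 with equal weight, 66 and 22 with the stricter cell filter, and 9 and 5 at 2-fold. The cause was not tested. Depth limits the rare classes, since 43 to 75 cells carry the macrophage values outside the Lyz2/Ms4a7 class of the wild-type injured library.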
